A study of Homo sapiens with 12 samples.

Results

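Genes of cholesterol and fatty acid synthesis were followed on 12 Agilent 2-colour arrays after knockdown of ZRF1 (symbol DNAJC2), a gene for a ribosome-associated chaperone. The cells were NT2/D1, a human line derived from an embryonal carcinoma. The list had 33 genes, chosen for their place in the pathways, and 32 of them were measured, among 18646 genes in all, through 53 probes. FDFT1 was not analysed here. The list was divided by role into 7 measured genes of the mevalonate arm, 2 between squalene and lanosterol, 8 between lanosterol and cholesterol, 6 of sterol transport and SREBP regulation, and 9 of fatty acid synthesis.

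Each array carried RNA of shZRF1 cells in one dye and RNA of shRandom cells, which carry a random hairpin, in the other. At 3 h both had received 0.01 µM retinoic acid (RA), and at 0 h both were untreated. Both times were sampled in 3 biological replicates, hybridised once with the shZRF1 RNA in Cy5 (forward array) and once with it in Cy3 (swapped array). The labels give no hairpin sequence and do not say whether the cells were clones or pools. RNA from 3 h and from 0 h never shared an array, so the effect of RA itself was not measured. Every value is a log2 ratio of shZRF1 over shRandom RNA, so a positive value means more RNA in the knockdown. Levels were not given, and so the identity of the cells could be checked only as ratios. Of 6 measured markers of pluripotent cells 0 passed the test at either time, with ratios from -0.20 to -0.01 at 3 h and from -0.10 to 0.17 at 0 h, and over both times DNMT3B alone was lower (-0.07). In bulk RNA, fewer cells of a type and less RNA per cell cannot be told apart.

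Cells make cholesterol and fatty acids from acetyl-CoA. The mevalonate arm builds isoprenoids, squalene is then closed to lanosterol, and a last series of enzymes trims lanosterol to cholesterol. SREBP transcription factors, the products of SREBF1 and SREBF2, raise the genes of both pathways when sterols run low. SCAP escorts SREBP out of the endoplasmic reticulum, and the INSIG proteins hold it back when sterols are plentiful. INSIG1 is itself an SREBP target.

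DNAJC2 stood between -0.66 and -0.39 on the 9 arrays of ordinary width. The other 3 arrays had a spread of log2 ratios (1st to 99th percentile) over 1.2 times that of the median array, and DNAJC2 read -2.73, -0.97 and -1.41 there. These wide arrays were the forward array of 3 h replicate 1, the swapped array of 3 h replicate 3 and the swapped array of 0 h replicate 2. Values without them come from a fit of the other 9 arrays as single arrays, with a dye coefficient and the replicate as a random block, so that both the arrays and the form of the fit differ. The same form with all 12 arrays, added after the data were seen, was run as its counterpart. In this form the 2 arrays of a replicate counted almost as separate units (consensus correlation 0.044 without the wide arrays). Its adjusted p therefore does not measure the spread between biological replicates alone, and is not on a par with that of the main fit. Without the wide arrays DNMT3B averaged -0.045 and no longer passed. Of 7 fibroblast markers 2 were higher (LUM and THY1) and 1 lower (COL1A1) at each time. Of 4 hepatocyte markers 0 passed at either time and 1, APOA1, was higher over both (0.11, or 0.05 and no longer past the test without the wide arrays). The part of other cell types in the results was not tested.

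Averaged over both times, 13 of the 32 genes were higher in the knockdown and 2 were lower. These were 40.6% and 6.25% of the list, against 10.8% and 10.7% of all genes tested (limma, Benjamini-Hochberg adjusted p under 0.05). The median log2 ratio of the 32 genes was 0.07, against 0.00 over all genes. The largest change, that of INSIG1, was 1.30-fold. The 17 sterol enzymes, which are the first 3 groups, had 9 higher and 1 lower, and a median of 0.14. Without 0 h replicate 3 the number of higher genes was 8 (25.0%, against 5.87% of all genes in that fit). It was 17 without the wide arrays (53.1%, against 14.6%) and 15 with all 12 arrays in the same form of fit (46.9%, against 13.5%). The number of lower genes was 0 when any single 0 h replicate or 3 h replicate 2 was left out (against 5.62% to 7.5% of all genes). It was 4 without 3 h replicate 3 (12.5%, against 10.1%). It was 5 without the wide arrays (15.6%, against 15.3%) and 4 with all 12 arrays in the same form of fit (12.5%, against 13.9%).

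**Figure D1:**
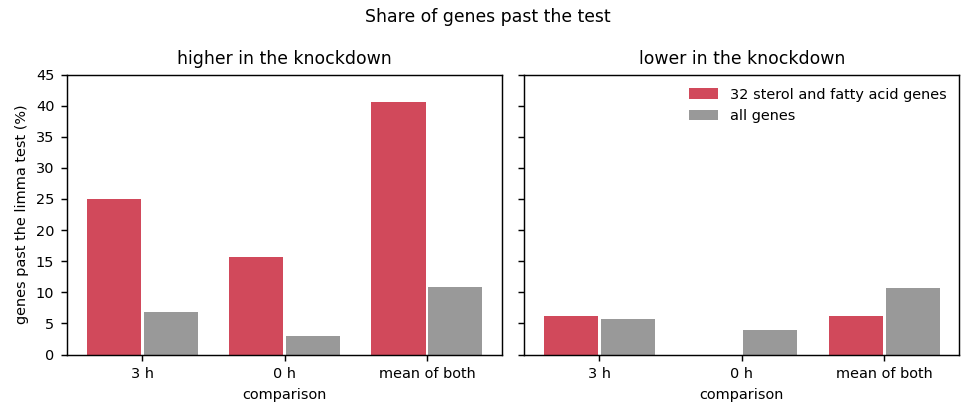
The bars give the percentage of genes past the limma test for the 32 sterol and fatty acid genes (red) and for all 18646 genes (grey), separately for higher and lower genes, at 3 h, at 0 h and for the mean of both. In the mean of both, 40.6% of the listed genes and 10.8% of all genes were higher, and 6.25% and 10.7% were lower.

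The direction alone was counted as well. In all 6 replicates, 14 of the 32 genes were above 0 (43.8%, against 14.1% of all genes) and 3 were below 0 (9.38%, against 13.3%). On all 12 arrays, 8 of the 32 genes were higher in the knockdown (25.0%, against 4.54% of all genes). They were HMGCS1, SQLE, LSS, CYP51A1, MSMO1, HSD17B7, INSIG1 and SCD. FADS2 was lower on all 12 arrays, as were 4.61% of all genes. These counts use the average over the probes of a gene.

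**Figure D2:**
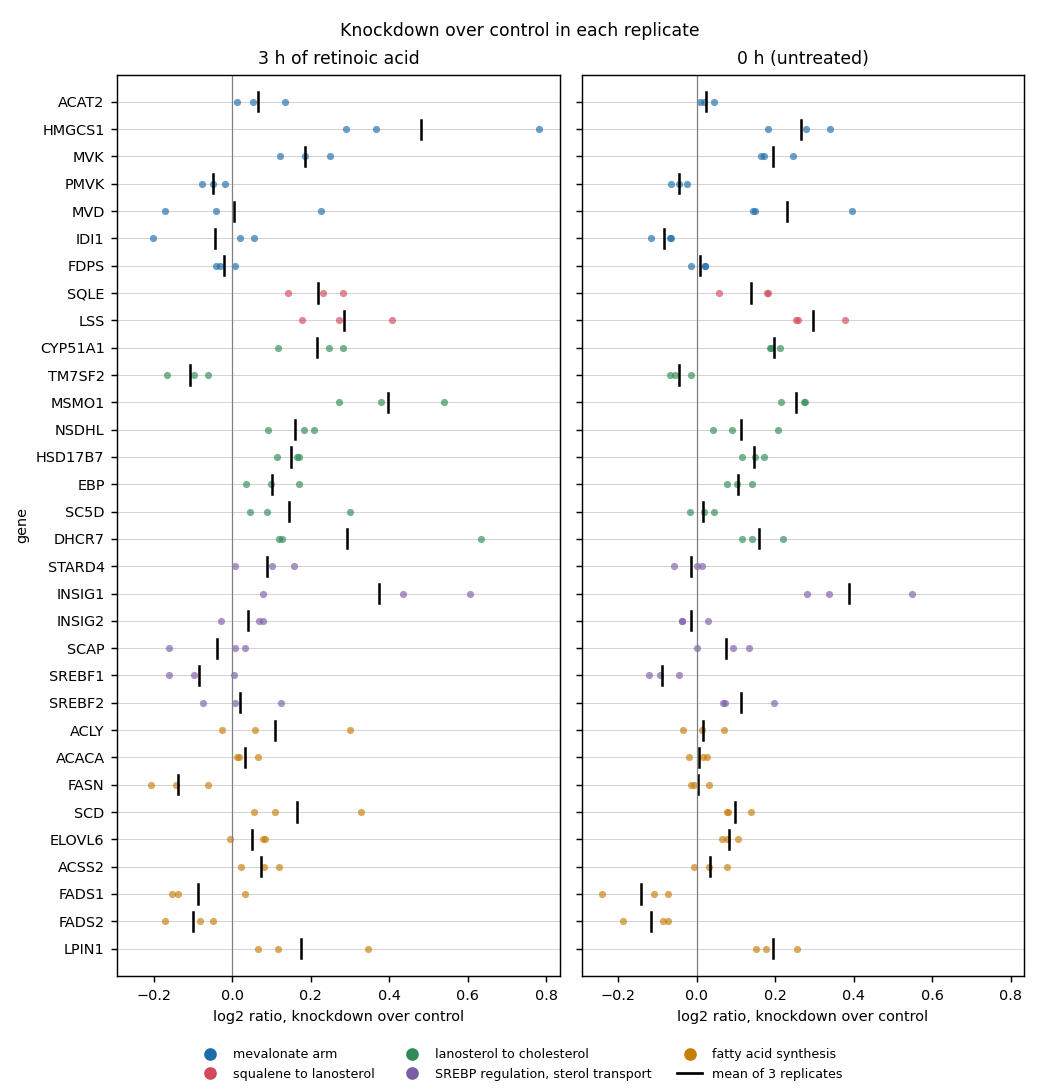
Each point is the log2 ratio of knockdown over control in 1 replicate, the average of its forward and swapped array, at 3 h of RA (left) and 0 h (right), and the black bar is the mean of 3 replicates. HMGCS1, LSS, CYP51A1, MSMO1 and INSIG1 lie right of 0 in every replicate, and the fatty acid genes at the foot of the plot scatter on both sides of 0.

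INSIG1, which encodes the sterol-sensing anchor of SCAP, had the largest mean ratio. Its replicates read 0.60, 0.08 and 0.44 at 3 h, and 0.34, 0.55 and 0.28 at 0 h. All 6 replicates were above 0, and 3 h replicate 2 was far lower than the others. Over both times INSIG1 was 1.30-fold higher, a log2 ratio of 0.38 ± 0.07 (moderated SE, n = 6 replicates; limma adjusted p = 0.012). Neither time passed alone, with a limma adjusted p = 0.0556 at 3 h and 0.0689 at 0 h. Without the wide arrays the mean ratio was 0.26 (limma adjusted p = 0.00016). INSIG1 then also passed at 3 h (0.20, limma adjusted p = 0.0121) and at 0 h (0.31, limma adjusted p = 0.000636), and it passed at 0 h with that time fitted alone (limma adjusted p = 0.0212). Both times passed as well after rescaling and after quantile normalization. With 3 h fitted alone INSIG1 did not pass, as no gene did. Its mean did not pass on forward arrays alone (0.31, limma adjusted p = 0.0555). Nor did it pass with the replicate number as a block (0.38, limma adjusted p = 0.0501).

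Among the mevalonate arm, 2 of 7 genes were higher over both times and 0 were lower, against 10.8% and 10.7% of all genes. HMGCS1, the cytosolic synthase that makes HMG-CoA, read 0.78, 0.37 and 0.29 in the 3 h replicates, and 0.18, 0.28 and 0.34 at 0 h. The value of 3 h replicate 1 stands apart and rests on 1.37 on its wide forward array, against 0.20 on the swapped array. HMGCS1 was 1.29-fold higher on average, at 0.37 ± 0.06 (limma adjusted p = 0.00949), or 0.28 without the wide arrays (limma adjusted p = 4.5e-05). On the 9 arrays of ordinary width it lay between 0.18 and 0.43. On forward arrays alone HMGCS1 averaged 0.47 and did not pass (limma adjusted p = 0.0654). Its 2 probes gave 0.34 and 0.62 at 3 h, the second with 2.30 on the wide forward array, and 0.30 and 0.24 at 0 h. On the ordinary arrays at 3 h they averaged 0.27 and 0.36. The second probe was -0.04 on the swapped array of 3 h replicate 3.

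MVK, mevalonate kinase, was the other gene of the arm past the test, and its ratio turned with the dye. Its replicates read 0.25, 0.12 and 0.18 at 3 h, and 0.16, 0.24 and 0.17 at 0 h. The forward arrays averaged -0.05 at 3 h and -0.12 at 0 h, whereas the swapped arrays averaged 0.42 at 3 h and 0.50 at 0 h. Its mean of 0.19 ± 0.02 (limma adjusted p = 0.00298) averages 2 orientations of opposite sign.

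The other 5 genes of the arm did not pass in the mean. ACAT2, which condenses acetyl-CoA, averaged 0.04. PMVK, the next kinase, averaged -0.05, or -0.06 without the wide arrays, where it passed as lower (limma adjusted p = 0.0204). IDI1, the isomerase, averaged -0.06, or -0.02 without the wide arrays. FDPS, which joins the isoprenoid units, averaged -0.01, or 0.03 without them. MVD, the decarboxylase, averaged 0.12 with replicates of -0.17, -0.04 and 0.23 at 3 h, and 0.14, 0.40 and 0.15 at 0 h. Without the wide arrays MVD averaged 0.08 and passed as higher (limma adjusted p = 0.0452). MVD was the gene whose orientations lay farthest apart, at -0.43 on forward and 0.44 on swapped arrays at 3 h, and at -0.24 and 0.70 at 0 h.

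Both measured genes between squalene and lanosterol were higher, as were 10.8% of all genes. SQLE, squalene epoxidase, read 0.28, 0.14 and 0.23 at 3 h, and 0.06, 0.18 and 0.18 at 0 h. It was above 0 on all 12 arrays and averaged 0.18 ± 0.03 (limma adjusted p = 0.00605), or 0.13 without the wide arrays. On forward arrays alone SQLE averaged 0.13 and did not pass (limma adjusted p = 0.1065). LSS, which closes the ring to give lanosterol, read 0.41, 0.18 and 0.27 at 3 h, and 0.25, 0.38 and 0.26 at 0 h. No replicate was near 0. LSS averaged 0.29 ± 0.03, a 1.22-fold higher level (limma adjusted p = 0.00278), or 0.22 without the wide arrays. Its 4 probes gave nearly the same ratio, from 0.25 to 0.31 at 3 h and from 0.29 to 0.30 at 0 h.

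Of the 8 genes between lanosterol and cholesterol, 5 were higher and 1 was lower, against 10.8% and 10.7% of all genes. MSMO1, the sterol methyl oxidase, read 0.54, 0.27 and 0.38 at 3 h, and 0.21, 0.28 and 0.27 at 0 h. It averaged 0.33 ± 0.03, or 1.25-fold (limma adjusted p = 0.00206), and 0.26 without the wide arrays. CYP51A1, lanosterol demethylase, read 0.28, 0.12 and 0.25 at 3 h, and 0.19, 0.19 and 0.21 at 0 h. It averaged 0.21 ± 0.02 (limma adjusted p = 0.00296), and the 0 h replicates were almost equal.

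HSD17B7, a sterol ketoreductase, had replicates between 0.11 and 0.17 at 3 h, and between 0.12 and 0.17 at 0 h. Its mean of 0.15 ± 0.02 had a limma adjusted p = 0.00258. A near-identical pseudogene, HSD17B7P2, exists, and its share of the signal was not tested. NSDHL, the sterol dehydrogenase that acts with MSMO1, averaged 0.14 (limma adjusted p = 0.016), or 0.08 without the wide arrays, a call that ended without 0 h replicate 3 (adjusted p = 0.053). EBP, the sterol isomerase, averaged 0.10 (limma adjusted p = 0.0183), a call that ended without 0 h replicate 2 (adjusted p = 0.0709) or 3 (adjusted p = 0.0639). On forward arrays alone neither gene passed, with NSDHL at 0.02 (limma adjusted p = 0.563) and EBP at 0.035 (limma adjusted p = 0.275).

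DHCR7 and SC5D act at the last steps, and neither passed in the mean. DHCR7, the final reductase, read 0.64, 0.12 and 0.13 at 3 h, and 0.12, 0.14 and 0.22 at 0 h. All 6 values were above 0, but 3 h replicate 1 held 1.21 on its wide forward array. The mean was 0.23 ± 0.07 (limma adjusted p = 0.0621). Without the wide arrays it was lower, at 0.15, and passed (limma adjusted p = 0.000204), as it did at 0.14 without 3 h replicate 1 (limma adjusted p = 0.00573). The call on DHCR7 also passed with all 12 arrays in the single-array form (0.23, limma adjusted p = 0.0454). SC5D, the desaturase, averaged 0.08, or 0.05 without the wide arrays, where it passed (limma adjusted p = 0.0458). Of its 3 probes at 3 h, 2 gave 0.23 and 0.20, and these held 1.15 and 0.76 on the wide forward array, while the other stood at 0.00. On the ordinary arrays at 3 h the 3 probes averaged 0.11, 0.09 and -0.01.

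TM7SF2, a sterol reductase, was the one sterol enzyme that passed the test as lower in the mean. It averaged -0.08 ± 0.02 (limma adjusted p = 0.0318). This call held only without 3 h replicate 3 among the 6 fits that left out 1 replicate, and the ratio was between -0.09 and -0.06 in those fits. Forward arrays averaged -0.28 at 3 h and -0.22 at 0 h, whereas swapped arrays averaged 0.06 at 3 h and 0.13 at 0 h.

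Of the 6 genes of SREBP regulation and sterol transport, INSIG1 alone passed in the mean, and the median was 0.03. Over all genes 10.8% were higher and 10.7% lower. SREBF1 averaged -0.09 (limma adjusted p = 0.0525), with replicates of -0.16, -0.10 and 0.005 at 3 h, and -0.09, -0.12 and -0.04 at 0 h. It passed as lower in 5 of the 9 alternatives that left out no replicate, and in 1 of the 6 that left out 1. Without the wide arrays it stood at -0.07 (limma adjusted p = 0.0282), and with all 12 in the single-array form at -0.09 (limma adjusted p = 0.0256). Its forward arrays averaged -0.195 at 3 h and -0.202 at 0 h, and its swapped arrays 0.025 and 0.027. SREBF2 averaged 0.07 (limma adjusted p = 0.193), or 0.04 without the wide arrays, and was -0.26 on forward and 0.30 on swapped arrays at 3 h. SCAP averaged 0.02 and INSIG2, the relative of INSIG1, averaged 0.01, or 0.04 and 0.02 without the wide arrays. STARD4, a sterol carrier, averaged 0.04, or 0.05 without the wide arrays, where it passed (limma adjusted p = 0.0425). Differences between INSIG1 and these genes were not tested.

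Fatty acid synthesis had 3 of 9 genes higher and 1 lower over both times, against 10.8% and 10.7% of all genes, with a median of 0.05. SCD, which desaturates stearate, read 0.33, 0.06 and 0.11 at 3 h, and 0.08, 0.08 and 0.14 at 0 h. As the average of its 3 probes it was above 0 on all 12 arrays, but 2 of the probes were below 0 on some arrays. The probes gave 0.159, 0.075 and 0.258 at 3 h, the last with 1.13 on the wide forward array. SCD averaged 0.13 ± 0.04 (limma adjusted p = 0.0455). That call ended without any single 0 h replicate or 3 h replicate 3 (adjusted p from 0.0625 to 0.143). It also ended on forward arrays alone (0.16, limma adjusted p = 0.0911) and with the replicate number as a block (limma adjusted p = 0.0841). Without the wide arrays SCD stood at 0.10 (limma adjusted p = 0.00215). LPIN1, the phosphatidate phosphatase, averaged 0.19 ± 0.04 (limma adjusted p = 0.0173). Its forward arrays averaged 0.326 at 3 h and 0.285 at 0 h, and its swapped arrays 0.025 and 0.104. On swapped arrays alone the mean was 0.06 and did not pass (limma adjusted p = 0.15). The call on LPIN1 ended without any single 0 h replicate (adjusted p from 0.0508 to 0.0683). LPIN1 averaged 0.14 without the wide arrays, with 0.11 at 3 h and 0.18 at 0 h. Its 2 probes gave -0.02 and 0.37 at 3 h, the second with 1.14 on the wide forward array, and 0.16 and 0.23 at 0 h. On the ordinary arrays they averaged -0.01 and 0.23 at 3 h, and 0.17 and 0.23 at 0 h.

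ELOVL6, an elongase of palmitate, averaged 0.07 ± 0.02 (limma adjusted p = 0.0456). That call ended in 5 of the 6 fits that left out 1 replicate, all but the one without 3 h replicate 2, at ratios from 0.06 to 0.07. ACLY, which makes cytosolic acetyl-CoA, averaged 0.06, or 0.03 without the wide arrays, and ACACA, the carboxylase, averaged 0.02. ACSS2, which activates acetate, averaged 0.05. FASN, the fatty acid synthase, averaged -0.07 (limma adjusted p = 0.0745).

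The desaturases of polyunsaturated fatty acids had negative mean ratios, and 1 of them passed. FADS2, the delta-6 desaturase, read -0.17, -0.08 and -0.05 at 3 h, and -0.09, -0.19 and -0.07 at 0 h. As the average of its 2 probes it was below 0 on every array, with a mean of -0.11 ± 0.02 (limma adjusted p = 0.0233). The probes gave -0.185 and -0.016 at 3 h, and -0.158 and -0.073 at 0 h, and the second was above 0 on some arrays. The call on FADS2 ended without any single 0 h replicate or 3 h replicate 2 (adjusted p from 0.0539 to 0.0728). FADS1, the delta-5 desaturase, averaged -0.11 ± 0.03 and did not pass (limma adjusted p = 0.0545). It passed at -0.09 without the wide arrays (limma adjusted p = 0.00334), at -0.11 with all 12 arrays in the single-array form (limma adjusted p = 0.0181) and at -0.15 without 3 h replicate 1 (limma adjusted p = 0.0126). Its swapped arrays averaged -0.30 at 3 h and -0.33 at 0 h, and its forward arrays 0.12 at 3 h and 0.04 at 0 h.

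**Figure D3:**
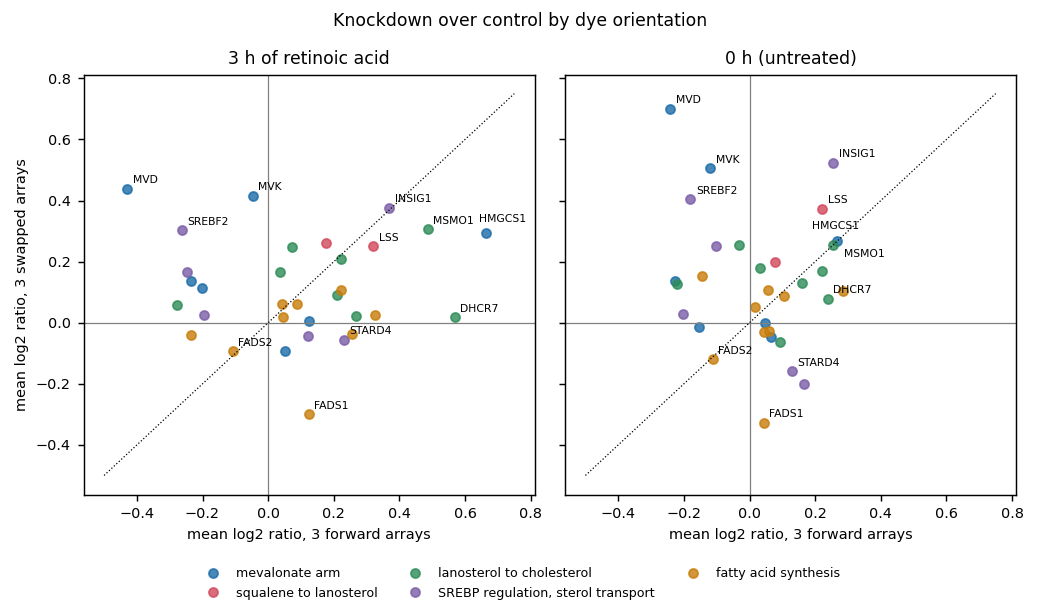
Each point is a gene, with its mean log2 ratio on the 3 forward arrays (horizontal) and on the 3 swapped arrays (vertical, sign turned), at 3 h of RA (left) and 0 h (right), and the dotted line marks equal values. HMGCS1, MSMO1, LSS and INSIG1 lie above 0 on both axes, while MVD, MVK and SREBF2 lie at upper left and FADS1 at lower right.

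Several genes turned sign with the dye. Forward and swapped means had opposite signs for 13 of 32 genes at 3 h and 17 at 0 h, and 12 of them did so at both times. The shares over all genes were 50.1% at 3 h and 54.1% at 0 h. Of the 15 genes past the test in the mean effect, MVK and TM7SF2 had opposite signs at both times and NSDHL at 0 h.

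The 3 members with the largest positive mean ratio are shown by the 250 bases before their annotated start in RefSeq (GRCh38.p14), since all 3 rose in the mean effect. INSIG1 is on the plus strand at chr7:155297628-155297877, HMGCS1 on the minus strand at chr5:43313413-43313662 and MSMO1 on the plus strand at chr4:165327419-165327668. Capitals mark matches on either strand to CCAAT (the NF-Y box), GGGCGG (the GC box) and CACGTG (an E-box). Reverse matches read ATTGG and CCGCCC.
INSIG1: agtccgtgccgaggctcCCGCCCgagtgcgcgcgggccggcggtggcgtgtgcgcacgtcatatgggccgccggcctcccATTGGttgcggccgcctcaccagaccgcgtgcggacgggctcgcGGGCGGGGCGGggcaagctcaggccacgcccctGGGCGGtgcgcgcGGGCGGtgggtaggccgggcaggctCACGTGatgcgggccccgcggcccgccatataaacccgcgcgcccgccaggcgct
HMGCS1: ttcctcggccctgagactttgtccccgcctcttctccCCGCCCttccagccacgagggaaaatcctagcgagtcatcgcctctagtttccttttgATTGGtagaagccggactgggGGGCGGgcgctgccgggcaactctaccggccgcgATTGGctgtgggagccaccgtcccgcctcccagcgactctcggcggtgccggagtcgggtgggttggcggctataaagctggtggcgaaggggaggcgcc
MSMO1: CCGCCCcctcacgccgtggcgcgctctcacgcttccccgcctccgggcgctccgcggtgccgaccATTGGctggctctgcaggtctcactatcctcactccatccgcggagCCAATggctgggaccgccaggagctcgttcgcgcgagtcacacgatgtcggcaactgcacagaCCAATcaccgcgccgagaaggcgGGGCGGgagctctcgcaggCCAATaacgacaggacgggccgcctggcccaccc
The MSMO1 window held 4 CCAAT matches, HMGCS1 2 and INSIG1 1. The GC box had 5 matches for INSIG1, of which 2 overlap by a base, and 2 each for HMGCS1 and MSMO1. CACGTG was found in INSIG1, 55 bases before the start.

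Windows of this length were found for 29 of the 32 genes. CCAAT was present for 20 of them (69.0%), and for 13 of 15 sterol enzymes (86.7%), against 40.4% of 14607 tested genes with a window. Among the fatty acid genes 4 of 8 had it. GGGCGG was present for 28 of 29 genes (96.6%), against 64.2% of tested genes, and CACGTG for 3 (10.3%), against 9.97%. The SRE-like pattern TCACNCCAC, searched on both strands, was found for SREBF2 alone, or 3.45% of the 29 genes, against 1.16% of tested genes. A gene with several annotated starts counted once if any of its windows held the letters. Among genes higher in the mean effect 9 of 12 held CCAAT, and among the other members with a window 11 of 17 did.

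At 3 h of RA, 8 of the 32 genes were higher (25.0%) and 2 were lower (6.25%), against 6.84% and 5.77% of all genes. The higher genes were MSMO1 (0.40), HMGCS1 (0.48), LSS (0.29), SQLE (0.22), CYP51A1 (0.22), MVK (0.18), NSDHL (0.16) and HSD17B7 (0.15), all enzymes of the sterol pathway. Their limma adjusted p lay between 0.00951 for MSMO1 and 0.0436 for NSDHL. TM7SF2 (-0.11, limma adjusted p = 0.0476) and FASN (-0.14, limma adjusted p = 0.0367) were lower. Without 3 h replicate 3 the number of higher genes was 2 (6.25%, against 2.66% of all genes in that fit). When the 3 h replicates were fitted alone it was 0, as it was over all genes. Without the wide arrays 13 genes were higher (40.6%, against 9.27%) and 1, FADS1, was lower (3.12%, against 9.32%), while all 12 arrays in the same form of fit gave 12 higher (37.5%, against 10.3%) and 2 lower (6.25%, against 8.84%). Ratios at 3 h were 0.31 for HMGCS1, 0.13 for SQLE and 0.11 for NSDHL without the wide arrays, each past the test, and -0.08 for FASN, which did not pass (limma adjusted p = 0.248). The 2 lower calls ended without any single 0 h replicate and without 3 h replicate 1 or 2. That on TM7SF2 also ended without 3 h replicate 3 (-0.13, limma adjusted p = 0.0612).

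At 0 h, 5 genes were higher (15.6%) and 0 were lower, against 2.92% and 3.89% of all genes. LSS (0.30), MSMO1 (0.25), CYP51A1 (0.20), MVK (0.19) and HSD17B7 (0.14) were higher, with limma adjusted p between 0.0204 and 0.0328, and all 5 were also higher at 3 h. At an unadjusted p under 0.05 in limma, 14 were higher and 3 lower, together 53.1% of the list, against 22.8% of all genes. Leaving out any single 0 h replicate brought the number of higher genes to 0, and that over all genes to between 0.123% and 0.145%. Without 3 h replicate 1 it was 11 (34.4%, against 5.63% of all genes) and without the wide arrays 13 (40.6%, against 8.35%). All 12 arrays in that single-array form gave 9 (28.1%, against 5.38%). The spread was shared by both times, so the wide forward array of 3 h replicate 1 also entered the 0 h test.

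The knockdown effect at 3 h was not shown to differ from that at 0 h for any of the 32 genes. In limma 0 passed, as did 0.0% of all genes, the smallest adjusted p was 0.718, and 1 had an unadjusted p under 0.05 (3.12%, against 5.06% of all genes). That gene was FASN, named for its p. It stood at -0.14 in the 3 h mean and 0.00 in the 0 h mean, and its difference was -0.14 ± 0.04, or -0.05 ± 0.06 without the wide arrays. Differences went from -0.22 for MVD to 0.21 for HMGCS1, and both ends hold values of wide arrays. Without those arrays the difference was -0.09 for MVD and 0.06 for HMGCS1. MSMO1 had a difference of 0.14 ± 0.07, or 0.03 ± 0.05 without them, and INSIG1 one of -0.02 ± 0.14, or -0.10 ± 0.06.

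**Figure D4:**
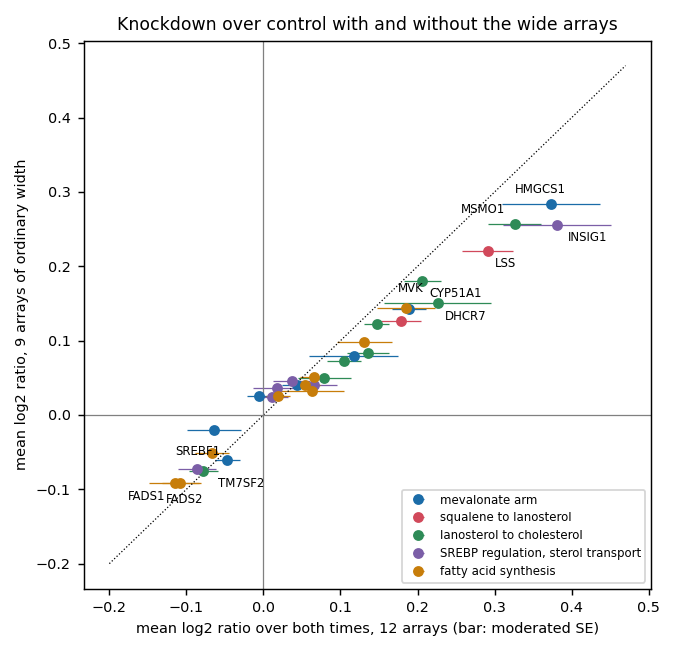
Each point is a gene, with its mean log2 ratio over both times from all 12 arrays (horizontal, bar of 1 moderated SE) and from the 9 arrays of ordinary width in the single-array fit (vertical), and the dotted line marks equal values. Higher genes lie below the line, as INSIG1 does at 0.38 and 0.26, and keep their sign.

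Neighbouring lipid genes, from lists drawn up with earlier results of these arrays known, were read against the same 10.8% higher and 10.7% lower of all genes. Of 9 genes that process or degrade SREBP and its escort proteins, 2 were higher over both times and 0 lower. They were ERLIN1 (0.21, limma adjusted p = 0.0024), which binds cholesterol in the endoplasmic reticulum membrane, and RNF145 (0.13, limma adjusted p = 0.0057), a ubiquitin ligase of that membrane. Of 11 genes of other isoprenoid branches, such as prenyl transferases, 0 passed in limma, with ratios from -0.07 to 0.14, and 3 had an unadjusted p under 0.05 (2 above and 1 below control), where 34.6% of all genes did.

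Among 13 genes of sterol trafficking, esterification and export, 1 was higher and 3 were lower. LIPA, the lysosomal acid lipase, was higher (0.23, limma adjusted p = 0.00592). NR1H3, which encodes the oxysterol receptor LXR alpha, was lower (-0.16, limma adjusted p = 0.0287), as was MYLIP, an LXR-induced ubiquitin ligase of lipoprotein receptors (-0.12, limma adjusted p = 0.00699). VLDLR, a lipoprotein receptor named after its value was seen, stood at -0.11 (limma adjusted p = 0.0417).

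Among 20 further genes of fatty acid and glycerolipid synthesis, 2 were higher and 2 lower. FADS3, a relative of FADS1 and FADS2, was lower (-0.26, limma adjusted p = 0.00199), and so was SCD5, a second stearate desaturase named after its value was seen (-0.11, limma adjusted p = 0.02). ACSL4, an acyl-CoA ligase for arachidonate, was higher (0.18, limma adjusted p = 0.0306), as was ELOVL1, an elongase of very long chains (0.13, limma adjusted p = 0.00809). Of 19 genes of fatty acid oxidation 5 were higher and 5 lower. CPT1C, the brain form of carnitine palmitoyltransferase, was lower at -0.53 (limma adjusted p = 0.000844). ETFB, an electron carrier of oxidation, stood at 0.21 (limma adjusted p = 0.00351), and HADH, a dehydrogenase of the cycle, at 0.21 (limma adjusted p = 0.00914), or 0.13 without the wide arrays.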

How the data were processed

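The deposited values were signed fold ratios of Cy5 over Cy3, a score in which ratios under 1 are written as the negative inverse. This unit was read from the values, which have 2 decimals and of which 0 lie between -1 and 1. The submitters' processing notes name limma for the deposited values. Neither version nor settings are given in the sources used here. On every array the deposited values shared a common scale, with an interquartile range of 0.154 in log2. Intensities were not used here, so dim probes stayed in, and precision is limited by the number of arrays.

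Ratios became log2 values, and swapped arrays were turned, as the dyes in the labels and the sign of DNAJC2 require. Symbols were updated by Entrez number through RefSeq (GRCh38.p14), 29298 of 29341 probes with 1 symbol being matched. Probes of a gene and the 2 arrays of a replicate were averaged. Linear models with a coefficient for each time were fitted to all 18646 genes with limma 3.58.1 in R 4.3.3, with Benjamini-Hochberg adjustment across the 18646 genes and a threshold of 0.05. SEs are moderated and rest on the spread shared by both times (4 residual degrees of freedom). A run on simulated data checked only that the fit returned planted changes on average. Its noise was independent between replicates, with no wide arrays and no dye effect, so it does not bear on the calls. The labels do not say that a replicate number marks a shared day, so the number was not used as a block. Deviations of replicates with the same number correlated at 0.04, -0.03 and -0.30 across genes.

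The labels call the replicates biological. Members, lists and alternatives were chosen with earlier results of these data known. All members are named. From each neighbouring list up to 3 genes with the largest mean effect past the threshold are named, and 2 others as stated.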

Additional observations from a re-analysis of the deposited data

How the results depend on the processing

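The genes past the test in all 6 fits that left out 1 replicate were 8: HMGCS1, MVK, SQLE, LSS, CYP51A1, MSMO1, HSD17B7 and INSIG1. These 8 genes kept their sign in the other alternatives, except MVK on forward arrays. They were picked by fits of the same arrays, so this is no separate support and does not cover the other members. With 1 replicate left out, 2 to 8 genes were higher and 0 to 1 lower at 3 h. The shares of all genes there were 2.3% to 4.39% and 1.44% to 3.68%. At 0 h, 0 to 11 were higher and 0 to 2 lower, against 0.123% to 5.63% and 0.0644% to 7.22% of all genes. In the mean, 8 to 13 were higher and 0 to 4 lower, against 5.81% to 11.4% and 5.62% to 11.3%. At 3 h (8 higher, 2 lower) 2 were higher on forward arrays (6.25%, against 3.11% of all genes). On swapped arrays 1 was lower (3.12%, against 5.43%). Without the wide arrays 13 were higher (40.6%, against 9.27%) and 1 lower (3.12%, against 9.32%). With arrays rescaled by their 1st to 99th percentile range 13 were higher (40.6%, against 10.1%). After quantile normalization 14 were higher (43.8%, against 9.84%) and 4 lower (12.5%, against 9.82%). With 3 h fitted alone 0 and 0 passed, as over all genes. At 0 h (5 higher, 0 lower) 1 was higher on forward arrays (3.12%, against 1.59% of all genes) and 1 lower (3.12%, against 2.7%). On swapped arrays the numbers were 13 (40.6%, against 12.8%) and 3 (9.38%, against 11.0%). Without the wide arrays they were 13 (40.6%, against 8.35%) and 3 (9.38%, against 9.5%). Rescaling gave 12 (37.5%, against 6.51%) and 3 (9.38%, against 8.28%). Quantile normalization gave 11 (34.4%, against 7.32%) and 2 (6.25%, against 8.19%). With 0 h fitted alone 9 were higher (28.1%, against 4.57%). In the mean (13 and 2), 7 were higher on forward arrays (21.9%, against 10.3% of all genes) and 6 lower (18.8%, against 13.4%). On swapped arrays 17 were higher (53.1%, against 20.0%) and 4 lower (12.5%, against 16.4%). Without the wide arrays 5 were lower (15.6%, against 15.3%). After rescaling or quantile normalization 4 were lower (12.5%, against 14.7% and 14.8%). With the replicate block 0 and 0 passed at 3 h and at 0 h, as over all genes. In the mean of that fit 7 were higher (21.9%, against 4.84% of all genes) and 0 lower, against 5.06%. Signs turned on forward arrays for MVK (-0.046 at 3 h, -0.12 at 0 h, -0.083 in the mean), INSIG2 (0.17 at 0 h), MVD (-0.34 in the mean) and SREBF2 (-0.22), and on swapped arrays for TM7SF2 (0.06 at 3 h, 0.093 in the mean), PMVK (0.14), STARD4 (-0.11) and INSIG2 (-0.12). Sign changes of genes past the test in neither fit are not counted. The fits on 1 orientation keep the dye effect, and the causes of the other changes were not tested. The median over probes and robust moderation of the variance changed no call. The fit without the wide arrays used single arrays with a dye coefficient and the replicate as a random block (consensus correlation 0.044). All 12 arrays in that form were an alternative chosen after seeing the data (0.035). They gave 12 higher and 2 lower at 3 h (10.3% and 8.84% of all genes). At 0 h they gave 9 and 1 (5.38% and 7.16%), and in the mean 15 and 4 (13.5% and 13.9%). Part of the rise in higher genes thus came with the form of the fit. Over all genes the number past the test went from 0 to 3666 at 3 h, from 0 to 4427 at 0 h and from 1846 to 6785 in the mean.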
